A study of Saccharomyces cerevisiae with 8 samples.

Results

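Ribosome biogenesis genes encode the proteins that build ribosomal subunits in the nucleolus and carry them to the cytoplasm without remaining in the finished ribosome. The set described here is a named list of 57 such genes of the budding yeast Saccharomyces cerevisiae. A row was found for 56 of them among the 11993 features and 5976 protein-coding genes of the deposited table, and these 56 are the members counted below. The listed identifier YGR090C has no row. The reference annotation places UTP22 under YGR090W, which was left out of the counts and is described at the end.

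RNA was sequenced from cultures of the haploid laboratory strain BY4741 (MATa), and every group carried the deletions his3Δ1, leu2Δ0, met15Δ0 and ura3Δ0. The wild type (WT) was compared with an upf1 strain of the same background labelled upf1*::kanMX4, a cassette in place of UPF1 or part of it; the labels explain neither the asterisk nor how many clones were used. Upf1 is the RNA helicase of nonsense-mediated decay, which removes mRNAs whose translation stops too early. Cultures at an optical density of 0.5 in rich medium at 30 °C received either cycloheximide (CHX), which blocks translation elongation, at 100 µg/ml for 15 min, or an equal volume of its solvent dimethyl sulfoxide (DMSO). The 2 strains and 2 treatments make 4 groups, each with 2 libraries that the design calls biological replicates. How the replicate cultures were separated is not stated, so p-values measure the spread between these libraries.

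Ribosome assembly starts on the nascent ribosomal RNA made by RNA polymerase I. A large particle, the small-subunit processome, forms around the U3 small nucleolar RNA (snoRNA) from the UtpA, UtpB, UtpC and Mpp10 complexes, while box C/D and H/ACA snoRNPs methylate the RNA and convert uridine to pseudouridine. Other proteins, among them DEAD-box RNA helicases and GTPases, remodel the precursors of the large subunit and prepare them for export. In yeast the genes of this programme are known to respond together to nutrients and growth, and many carry the PAC and RRPE promoter elements, which the repressors Dot6 and Tod6 and the repressor Stb3 are known to bind.

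The promoters of the members held these elements in a larger share of cases than promoters in general, a description for which no test was run. Matches were sought on both strands to the PAC core, GATGAG, and the RRPE core, GAAAAATTT, from 250 bases before to 50 bases after the first base of the start codon in build R64. The PAC core was present in 52 of 56 member windows (92.9%) and in 20.3% of 5957 windows of the same length. For the RRPE core the figures were 30 of 56 (53.6%) and 6.13%, and 27 members held both against 3.11% of all windows. Other genes of the pathway came close to the members: the PAC and RRPE cores were in 92.9% and 59.5% of 42 other small-subunit factors, 90.0% and 62.5% of 40 other large-subunit factors and 81.8% and 45.5% of 11 RNA polymerase I genes. The 4 members without a PAC core were UTP15, RRP7, SPB1 and NOP53, and NOP53 alone had neither core. Of the 82 PAC matches, 89.0% lay 50 to 200 bases upstream of the start codon, at a median of 119 bases, and the 37 RRPE matches had a median of 135 bases. The 2 cores can overlap each other by 1 letter, and the RRPE core overlaps its own reverse complement in GAAAAATTTTTC, which then counts as a match on each strand. A match describes letters, not a bound site.

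The stretch from 250 to 91 bases before the start codon is shown for 4 members whose mRNAs are described below, 5′ to 3′ on the strand of the gene, with matches to either core in capitals. GAR1 (chrVIII:283389-283548, minus strand) and NOP1 (chrIV:427114-427273, plus strand), both lower against other mRNAs after CHX in WT, held both cores. UTP6 (chrIV:1358993-1359152, minus strand), the member with the largest rise in WT, held the PAC core alone, and NOP53 (chrXVI:277620-277779, minus strand) held none. In NOP1 the PAC core appears as its reverse complement CTCATC. The letters were read from the RefSeq genome of build R64.
GAR1: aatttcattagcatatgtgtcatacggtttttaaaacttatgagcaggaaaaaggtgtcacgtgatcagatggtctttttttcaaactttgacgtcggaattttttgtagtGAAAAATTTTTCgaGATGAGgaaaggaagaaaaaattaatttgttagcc
NOP1: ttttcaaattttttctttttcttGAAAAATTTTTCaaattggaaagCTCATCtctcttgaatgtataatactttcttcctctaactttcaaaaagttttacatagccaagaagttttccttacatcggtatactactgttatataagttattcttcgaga
UTP6: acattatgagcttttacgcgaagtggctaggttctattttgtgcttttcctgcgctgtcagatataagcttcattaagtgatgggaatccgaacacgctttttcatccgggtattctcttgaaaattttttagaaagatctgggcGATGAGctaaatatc
NOP53: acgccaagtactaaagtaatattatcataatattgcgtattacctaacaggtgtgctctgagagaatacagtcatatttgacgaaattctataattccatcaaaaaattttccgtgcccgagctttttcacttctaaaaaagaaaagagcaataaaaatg

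**Figure D1:**
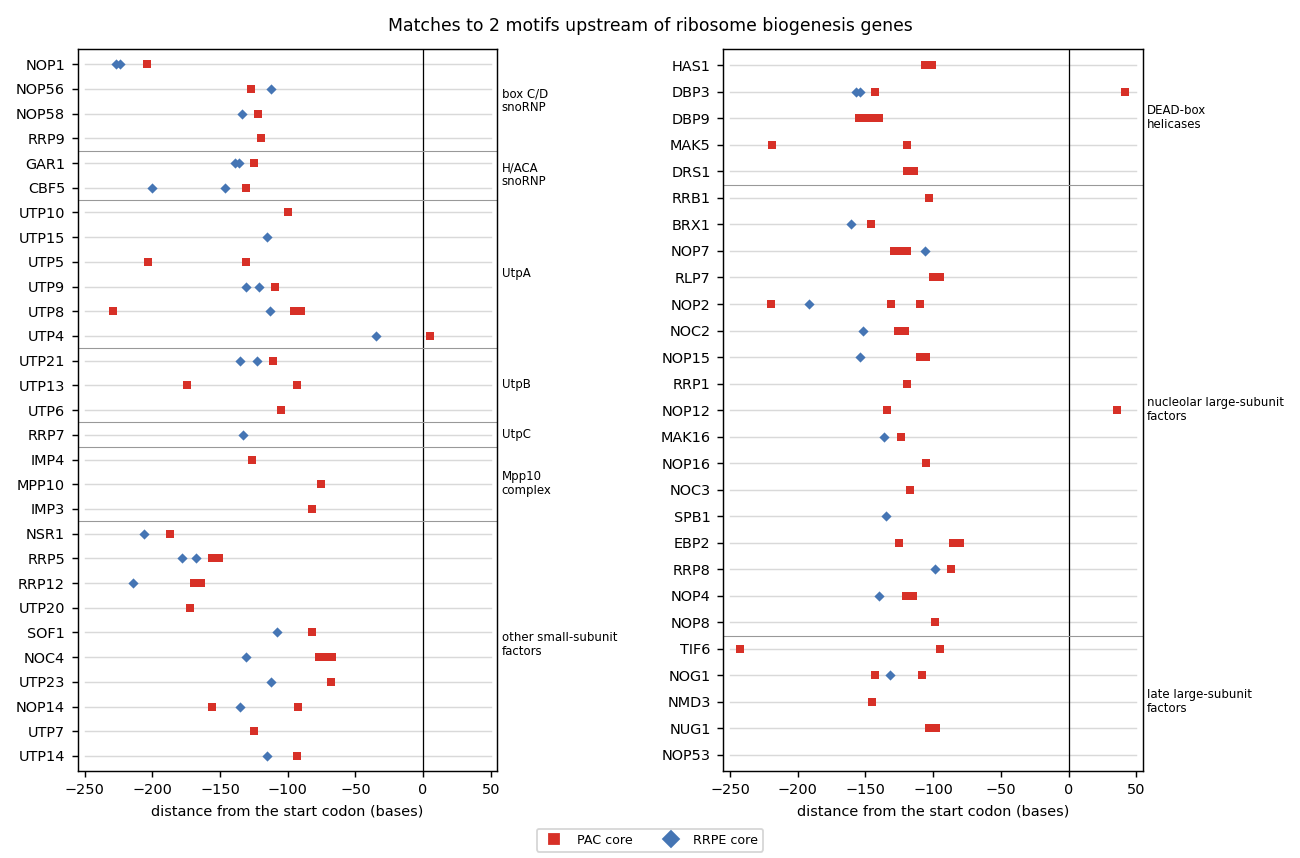
Positions of PAC core (red squares) and RRPE core (blue diamonds) matches on either strand in the window of each of the 56 members, ordered by role, with distance from the start codon in bases on the horizontal axis. Most matches lie 50 to 200 bases upstream, and the row of NOP53 is empty.

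Libraries held 9.09 to 25.64 M reads (M, megareads), of which 83.0% to 89.5% fell on protein-coding genes, and every member had at least 200 reads in each library. Values are read densities, that is reads per feature length after the authors' scaling, in arbitrary units, and levels of different genes are therefore compared per length. NAM7, the gene of Upf1, had 1901 to 4143 reads in the 4 WT libraries and 45 to 161 in the 4 upf1 libraries, and LEU2 and URA3 had at most 2 reads anywhere. Depth differed within groups, and the upf1 replicates stood further apart than the WT replicates. The gaps are given on the mRNA scale, defined in the next paragraph. There replicate 2 exceeded replicate 1 by a median over members of log2 0.17 in upf1 under DMSO and 0.18 under CHX. For the WT groups the gaps were 0.09 and 0.05. That scale divides replicate 2 by the larger factor in every group, so each gap was wider on the densities as deposited. The part of the wider upf1 gaps in results that rest on the upf1 libraries was not tested.

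Changes were measured on 2 scales. On the deposited scale a density is a level against the 76 snoRNAs, because the library factors matched a scaling on snoRNAs within 0.402%, so that a shift of the snoRNAs as a whole would turn up, reversed, in every mRNA. An external RNA standard, the ERCC spike-in mix, went into each sample per the labels' protocol, and whether the authors' scaling used it is not given in the sources used here. For the mRNA scale each library was divided by its median ratio over 5817 protein-coding genes, so that a change is a change against the typical mRNA. Each scale was fitted with limma over 11700 features, all adjusted p-values are limma's with Benjamini-Hochberg adjustment over those features, and a gene is called when the adjusted p is below 0.05. In these bulk samples, a change in the number of cells with an mRNA and a change in its amount per cell cannot be told apart. Groups of 2 libraries often lay apart. On the mRNA scale both CHX libraries in WT were above both DMSO libraries for 6635 of 11700 features and below for 3009. In upf1 these counts were 3770 and 4547. For upf1 against WT they were 4815 and 4037 in DMSO and 2720 and 4824 in CHX.

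The members were more abundant than the typical mRNA. In WT with DMSO their median density on the mRNA scale was 0.926, against 0.432 for all protein-coding genes, and 51 of 56 lay above that median. Individual members spanned a 47.9-fold range. At the top stood NOP1, the box C/D methyltransferase (YDL014W, chromosome IV, 427364 to 428347), at 7.26 and 8.07 in the 2 WT libraries with DMSO. NSR1, a nucleolar RNA-binding protein of the small-subunit pathway (YGR159C, chromosome VII, 806412 to 807656), had 5.80 and 6.62. TIF6, which keeps the large subunit from joining the small one too early (YPR016C, chromosome XVI, 592332 to 593069), had 5.91 and 6.30. The ranges of NSR1 and TIF6 overlapped, and NOP1 lay above both in each WT library with DMSO. UTP14 (YML093W, chromosome XIII, 83090 to 85789), which activates the helicase Dhr1 in the processome, was lowest at 0.144 and 0.176.

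Levels differed by role as well. The mRNAs of box C/D proteins ranged from 0.742 for the U3-specific RRP9 (YPR137W) to 7.66 for NOP1, as group means on the mRNA scale in WT with DMSO. The UtpA subunits, which bind the nascent precursor first, lay between 0.817 (UTP4) and 1.55 (UTP10). The 3 UtpB subunits lay between 0.555 (UTP6) and 1.07 (UTP21), and the Mpp10 complex between 0.555 (IMP3) and 0.865 (IMP4). Subunits of these 3 complexes thus lay between 0.555 and 1.55, while the mRNAs of the snoRNP core proteins, NOP1, NOP56, NOP58, GAR1 and CBF5, had means of 2.69 or more. Helicases ranged from 0.386 for DRS1 to 2.62 for HAS1, which releases snoRNAs from precursors. Among 17 nucleolar large-subunit factors NOP8 was lowest at 0.272 and RRB1, a chaperone of ribosomal protein L3, highest at 2.78. The summed density of all members made up 0.675% and 0.692% of the protein-coding density under DMSO in WT and 0.884% and 0.908% under CHX. In upf1 the shares were 0.706% and 0.797% under DMSO and 0.780% and 0.885% under CHX. Both WT libraries with CHX were above both with DMSO. The ribosomal protein genes, which take 25.9% to 30.4% of the same sum, took a smaller share in every CHX library than in any DMSO library, and a share of this kind moves with the other genes in it.

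**Figure D2:**
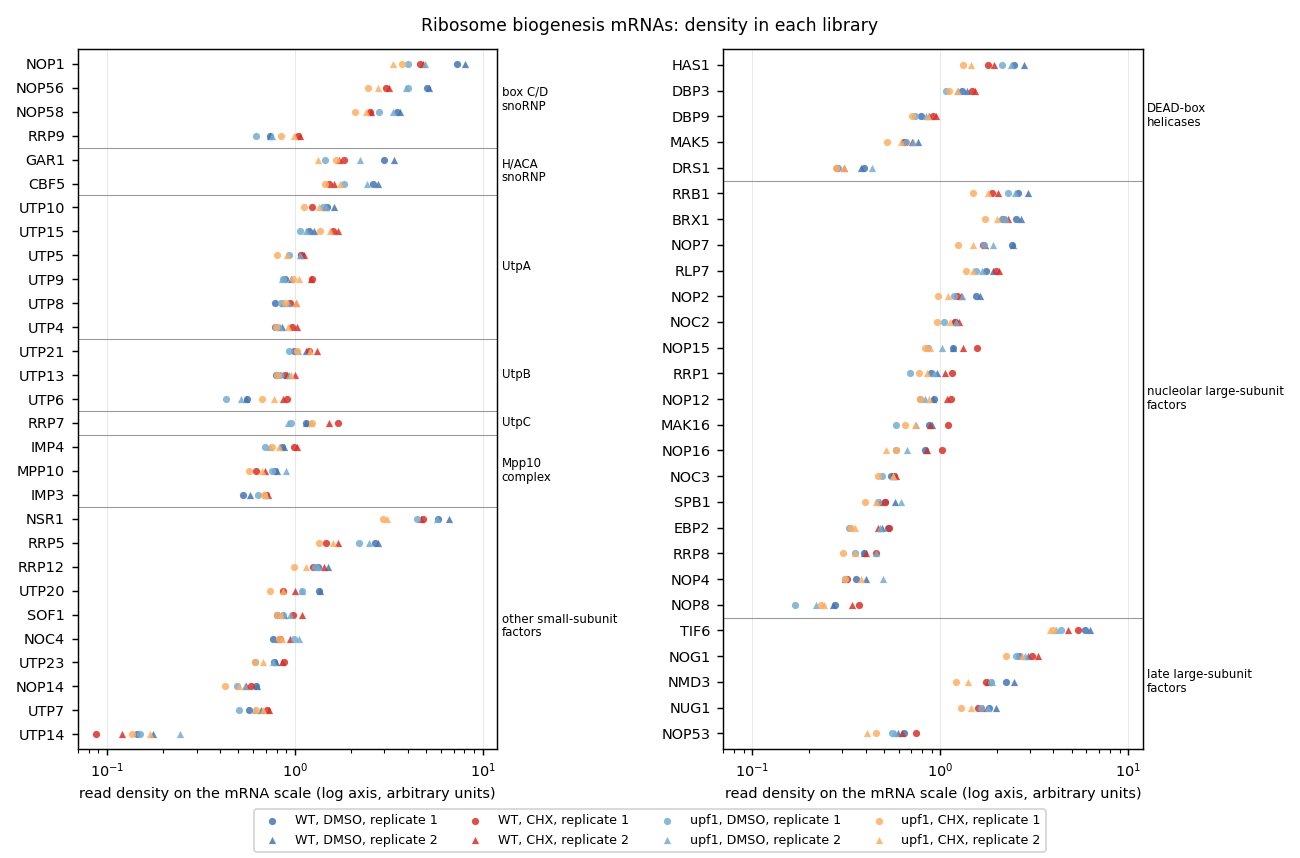
Read density on the mRNA scale (log axis, arbitrary units) of each of the 56 members in all 8 libraries, ordered by role, with colour for the group and a circle or triangle for replicate 1 or 2. NOP1, NSR1 and TIF6 are the most abundant members in WT with DMSO and UTP14 is the least abundant; in the snoRNP rows other than RRP9 the WT libraries with DMSO lie to the right of the rest.

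CHX was the first comparison, of treated with solvent-treated cells within a genotype. On the deposited scale all 56 members rose after CHX in WT, as did nearly everything else: 95% of all features were called higher. The members' median change was log2 1.56 and that of protein-coding genes 1.55. UTP6 (YDR449C, chromosome IV, 1357580 to 1358902), a UtpB subunit, had deposited densities of 0.266 and 0.274 with DMSO and 1.24 and 1.27 with CHX. GAR1 (YHR089C, chromosome VIII, 282681 to 283298), a core protein of H/ACA snoRNPs, had 1.42 and 1.69 with DMSO and 2.50 and 2.52 with CHX. These were the largest and smallest changes among members, at log2 2.19 ± 0.20 SE, adjusted p = 1.33e-06, and log2 0.69 ± 0.22 SE, adjusted p = 0.0106. A rise against snoRNAs was thus shared by the members and the median mRNA, and the mRNA scale shows how members moved within that shift.

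Against other mRNAs, that is on the mRNA scale, the members split after CHX in WT. There 12 rose, 15 fell and 29 did not pass the test, where 44.1% of all features were called higher and 18.9% lower. Among protein-coding genes 34.9% were called higher and 30.7% lower. The members' median change was log2 0.04 beside 0.07 for protein-coding genes. The mRNAs of the snoRNP core proteins fell on this scale while they rose on the deposited one. NOP1 had 7.26 and 8.07 with DMSO and 4.63 and 4.82 with CHX (log2 -0.70 ± 0.11 SE, adjusted p = 0.00104). NOP56 (YLR197W, chromosome XII, 546097 to 547611), a scaffold of box C/D snoRNPs, had 5.03 and 5.21 with DMSO and 3.07 and 3.17 with CHX (log2 -0.71 ± 0.07 SE, adjusted p = 0.000138). Both CHX libraries lay below both DMSO libraries for each of these mRNAs. GAR1 went from 3.0 and 3.39 to 1.83 and 1.72 (log2 -0.84 ± 0.19 SE, adjusted p = 0.00640), and CBF5 (YLR175W, chromosome XII, 506134 to 507585), the pseudouridine synthase, from 2.62 and 2.76 to 1.52 and 1.61 (log2 -0.78 ± 0.14 SE, adjusted p = 0.00170). NOP58 fell as well, by 0.49, so that 5 of the 6 snoRNP members were called lower. The exception was RRP9 (YPR137W, chromosome XVI, 802359 to 804080), the U3-specific member, which rose from 0.742 and 0.743 to 1.05 and 1.07 (log2 0.51 ± 0.11 SE, adjusted p = 0.00463), with no overlap between the groups.

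Of the 13 subunits of the UtpA, UtpB, UtpC and Mpp10 complexes, pooled here, 7 rose and 0 fell after CHX in WT. Of all features, 44.1% were called higher in this comparison and 18.9% lower, and of protein-coding genes 34.9% and 30.7%. No test was run on this pool. The same shares stand beside the counts by role in the next paragraph. UTP6 rose from 0.560 and 0.550 to 0.910 and 0.866 on the mRNA scale (log2 0.67 ± 0.11 SE, adjusted p = 0.00115). RRP7 of UtpC (YCL031C, chromosome III, 64675 to 65568) rose from 1.14 and 1.15 to 1.69 and 1.52 (log2 0.48 ± 0.07 SE, adjusted p = 0.000685). In UtpA, 3 of 6 subunits rose: UTP15 (YMR093W) at log2 0.42 ± 0.08 SE, adjusted p = 0.00287, UTP9 (YHR196W) at log2 0.41 ± 0.07 SE, adjusted p = 0.00139, and UTP4 (YDR324C) by 0.28. UTP15 stood at 1.19 and 1.27 with DMSO and 1.59 and 1.69 with CHX, and UTP9 at 0.889 and 0.959 with DMSO and 1.23 and 1.22 with CHX. In both, each CHX library exceeded each DMSO library. Within the Mpp10 complex IMP3 (YHR148W) and IMP4 (YNL075W, chromosome XIV, 485607 to 486479) rose, the latter from 0.854 and 0.875 to 0.995 and 1.03 (log2 0.22 ± 0.07 SE, adjusted p = 0.0242). MPP10 (YJR002W) did not pass the test, with 0.782 and 0.805 under DMSO against 0.620 and 0.694 under CHX (log2 -0.27 ± 0.11 SE, adjusted p = 0.0671), nor did UTP10 (YJL109C), with 1.49 and 1.61 against 1.23 and 1.44 (log2 -0.22 ± 0.11 SE, adjusted p = 0.124). In both of these, each CHX library lay below each DMSO library. UTP21 (YLR409C, chromosome XII, 934414 to 937233), the most abundant UtpB subunit, also did not (log2 0.23 ± 0.11 SE, adjusted p = 0.110).

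Among the other 10 small-subunit factors 3 fell on the mRNA scale and 1, SOF1, rose. RRP5 (YMR229C, chromosome XIII, 725934 to 731123), an RNA-binding protein needed for both subunits, fell from 2.68 and 2.79 to 1.47 and 1.71 (log2 -0.78 ± 0.11 SE, adjusted p = 0.000596), with no overlap. NSR1 went from 5.80 and 6.62 to 4.79 and 4.71 (log2 -0.38 ± 0.12 SE, adjusted p = 0.0212), and UTP20 (YBL004W) was lower too. HAS1 (YMR290C, chromosome XIII, 850074 to 851591) was the single helicase of 5 to be called, at 2.46 and 2.79 with DMSO and 1.80 and 1.94 with CHX (log2 -0.48 ± 0.09 SE, adjusted p = 0.00269). Of 17 nucleolar large-subunit factors, NOP8, NOP12 and NOP15 rose and NOP2, NOP7, RRB1 and BRX1 fell. BRX1 (YOL077C, chromosome XV, 185848 to 186723), the most abundant of them over all libraries, went from 2.54 and 2.68 to 2.15 and 2.29 (log2 -0.23 ± 0.08 SE, adjusted p = 0.0379). In the late group TIF6 (log2 -0.27 ± 0.08 SE, adjusted p = 0.0187) and NMD3 (YHR170W), the export adaptor of the large subunit, fell, and NOG1, NUG1 and NOP53 did not pass the test.

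The calls were not equally stable. Of the 27 calls on the mRNA scale, 17 were kept under every alternative tried on this scale, among them UTP6, RRP9, RRP7, UTP15, UTP9 and IMP3 upward and NOP1, NOP56, NOP58, CBF5, GAR1 and RRP5 downward. Without replicate 1 of WT with DMSO 6 members were called higher, and with trimmed-mean (TMM) scaling, which moved the median protein-coding change by 0.13, the split was 22 higher and 11 lower.

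**Figure D3:**
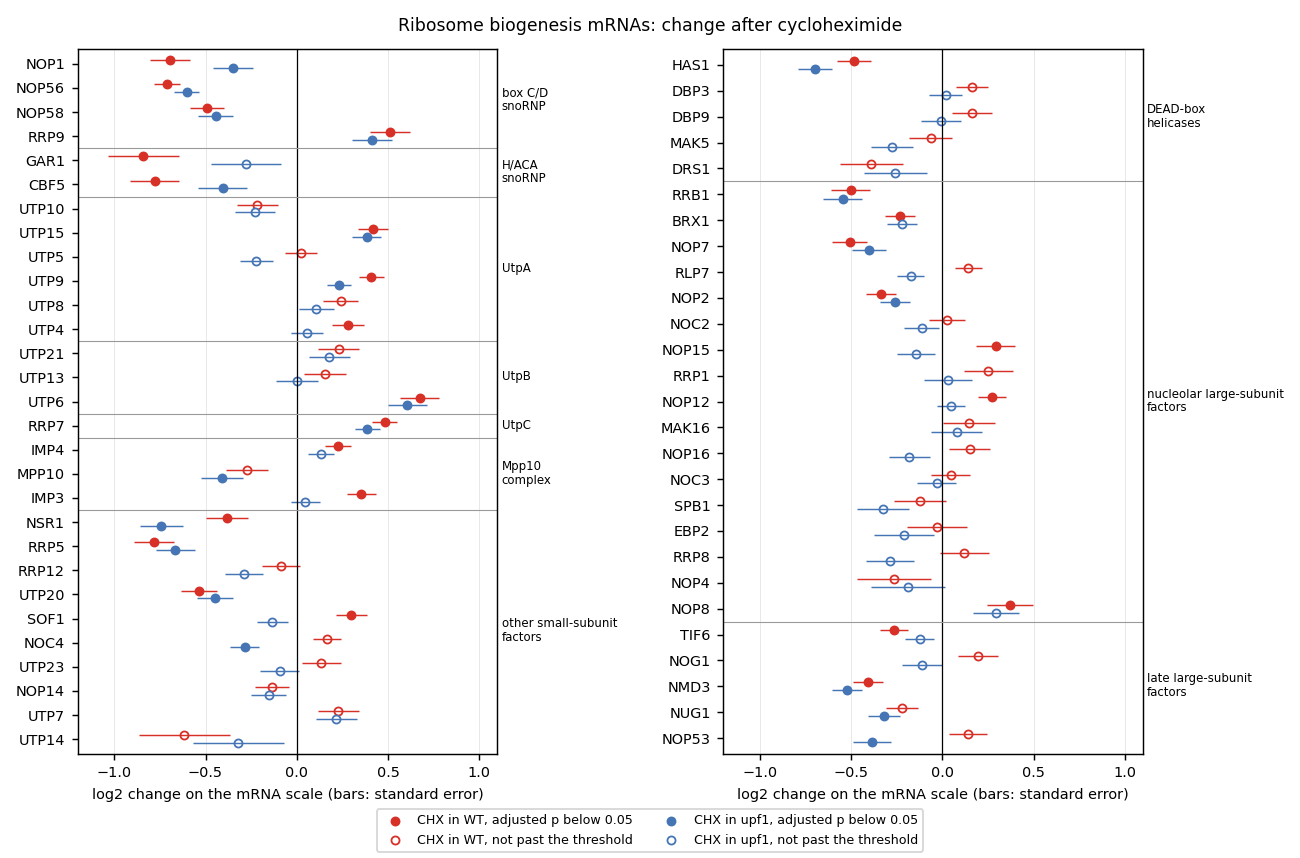
Log2 change on the mRNA scale after CHX in WT (red) and in upf1 (blue) for the 56 members by role, with standard errors from limma as bars and filled points for adjusted p below 0.05. NOP1, NOP56, NOP58 and RRP5 lie left of 0 in both strains and UTP6, RRP9, RRP7 and UTP15 right of 0; on the deposited scale all 56 members were higher in both strains.

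In upf1 cells the members divided again. All 56 members rose again on the deposited scale, with 89% of all features called higher, at a median of log2 1.02 beside 1.14 for protein-coding genes. Against the typical mRNA, on the mRNA scale, 5 rose and 16 fell, where 16.1% of features were called higher and 21.4% lower, and the median was -0.18 beside -0.05. Of protein-coding genes, 22.1% were called higher and 28.8% lower. The 2 CHX comparisons share no library. All 5 members that rose in upf1 had also risen in WT, where they were 5 of 12. Of the 16 that fell, 12 had also fallen in WT, where they were 12 of 15. The matching overlap among all features is not given here, so this overlap cannot be read as particular to the members. Across the 56 members the 2 changes had a Pearson r of 0.829 and a Spearman rho of 0.870. Across 5897 protein-coding genes these were 0.700 and 0.681, as a description over genes measured in the same libraries.

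UTP6 rose on the mRNA scale from 0.429 and 0.520 in upf1 with DMSO to 0.673 and 0.774 with CHX (log2 0.61 ± 0.11 SE, adjusted p = 0.00365). RRP7 went from 0.956 and 0.925 to 1.24 and 1.22 (log2 0.39 ± 0.07 SE, adjusted p = 0.00375) and UTP15 from 1.07 and 1.14 to 1.36 and 1.53 (log2 0.38 ± 0.08 SE, adjusted p = 0.00813). In all 3 both CHX libraries stood above both DMSO libraries, and these 3 rises were kept under every alternative. RRP9, from 0.620 and 0.760 to 0.848 and 0.986 (log2 0.41 ± 0.11 SE, adjusted p = 0.0212), and UTP9, from 0.868 and 0.858 to 0.979 and 1.05 (log2 0.23 ± 0.07 SE, adjusted p = 0.0307), were not. RRP9 lost its call without replicate 1 of upf1 with DMSO and without replicate 2 of upf1 with CHX, each of which left 3 members called higher.

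The largest falls on the mRNA scale in upf1 belonged to abundant members. NSR1 fell from 4.47 and 5.70 to 2.94 and 3.09 (log2 -0.74 ± 0.12 SE, adjusted p = 0.00213), and HAS1 from 2.14 and 2.38 to 1.32 and 1.46 (log2 -0.70 ± 0.09 SE, adjusted p = 0.00109). RRP5 went from 2.19 and 2.49 to 1.35 and 1.60 (log2 -0.67 ± 0.11 SE, adjusted p = 0.00260), NOP56 from 4.02 and 3.93 to 2.47 and 2.77 (log2 -0.60 ± 0.07 SE, adjusted p = 0.000678), and RRB1 (YMR131C, chromosome XIII, 533163 to 534698) from 2.29 and 2.51 to 1.49 and 1.80 (log2 -0.55 ± 0.11 SE, adjusted p = 0.00568). None of these 5 had overlapping groups, which was also so for 4547 of 11700 features downward and 3770 upward. All 5 calls were kept under every alternative. GAR1 did not pass the test in upf1: its densities were 1.45 and 2.23 with DMSO and 1.66 and 1.32 with CHX (log2 -0.28 ± 0.19 SE, adjusted p = 0.294), and its 2 DMSO libraries lay far apart. Calls downward numbered 8 without replicate 2 of upf1 with DMSO and 9 without replicate 1 of upf1 with CHX.

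Among the most abundant members the median change after CHX was negative, as it was among protein-coding genes of those levels. To keep the level and the change in separate libraries, the CHX change in WT was set against the level in upf1 with DMSO. Members with a density of 2 or more there (11) had a median change of log2 -0.49 on the mRNA scale, beside -0.67 for 531 other protein-coding genes with densities of 2 to 9. At densities of 1 to 2 the medians were -0.22 for 13 members and -0.37 for 682 others. Between 0.6 and 1 they parted, at 0.23 for 20 members and -0.11 for 908 others, a difference for which no test was run. Below 0.6 the order turned, so that the members' medians did not fall steadily with level, with 0.01 for 12 members and 0.30 for 3527 others. Levels were not matched within this bin: the lowest member stood at 0.193, while other genes reached down to 0. The part of this mismatch in the difference was not tested. For CHX in upf1, binned by the level in WT with DMSO, the medians from the lowest bin to the highest were -0.20, -0.000723, -0.17 and -0.43 for members and 0.12, -0.07, -0.24 and -0.46 for the others. The lowest bin again began at 0, with the lowest member at 0.160. Over the 56 members the correlation of log level and change was r = -0.492, and over all 5897 protein-coding genes -0.543. For the CHX change in upf1 against the level in WT with DMSO these were -0.463 and -0.382. By promoter, the median change in WT was -0.09 for the 27 members with both cores and 0.05 for the 25 with the PAC core alone, and each of these classes held members that rose and members that fell. The 4 members with no PAC core had a median of 0.28. Median levels in WT with DMSO differed between the classes as well, at 1.21, 0.849 and 0.882 in that order.

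**Figure D4:**
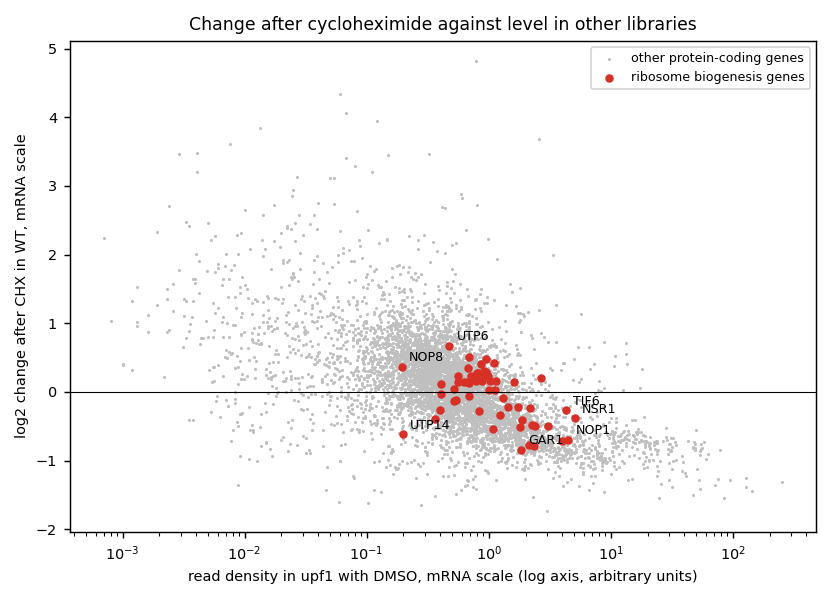
Log2 change on the mRNA scale after CHX in WT against read density in upf1 with DMSO (log axis, arbitrary units), for the 56 members (red) and all other protein-coding genes tested with a density above 0 (grey). The 11 members with densities of 2 or more have a median change of -0.49, the 12 below 0.6 one of 0.01, and UTP14 lies low at a low density.

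The absence of Upf1 was then compared with WT within a treatment. In DMSO, 36 members were higher in upf1 on the deposited scale and 0 lower, where 62% of all features were called higher, and the median change of 0.50 stood beside 0.57 for protein-coding genes. This count rested on single libraries: it was 5 without replicate 1 of WT with DMSO, 23 without replicate 2 of that group and 4 without replicate 2 of upf1 with DMSO, and only UTP8, IMP3, NOC4 and SOF1 were called under every alternative on this scale. With the mRNA scale 2 members rose and 16 fell, where 31.1% of features were called higher and 20.7% lower, and the median was -0.19 beside -0.11. Of protein-coding genes, 23.3% were called higher and 31.4% lower.

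NOC4 (YPR144C, chromosome XVI, 819765 to 821423), a partner of NOP14 in small-subunit assembly, rose from 0.768 and 0.810 in WT to 0.995 and 1.06 in upf1 on the mRNA scale (log2 0.38 ± 0.08 SE, adjusted p = 0.00487). IMP3 (YHR148W, chromosome VIII, 393534 to 394085) rose from 0.528 and 0.581 to 0.639 and 0.704 (log2 0.27 ± 0.08 SE, adjusted p = 0.0205). The strains did not overlap for either mRNA, and both were also higher on the deposited scale. The mRNAs of the snoRNP proteins GAR1 and NOP1 had the largest falls on the mRNA scale. Changes in this comparison fell with the log level in WT with CHX, at r = -0.488 over the 56 members and -0.424 over 5897 protein-coding genes. The part of level in the falls of abundant members was not tested. GAR1 stood at 3.0 and 3.39 in WT and 1.45 and 2.23 in upf1 (log2 -0.83 ± 0.19 SE, adjusted p = 0.00872), and NOP1 at 7.26 and 8.07 in WT and 4.03 and 4.94 in upf1 (log2 -0.78 ± 0.11 SE, adjusted p = 0.000735). TIF6 fell from 5.91 and 6.30 to 4.40 and 4.12 (log2 -0.52 ± 0.08 SE, adjusted p = 0.00106). In these 3 every upf1 library was below every WT library. Against snoRNAs, on the deposited scale, none of the 3 passed the test, with changes of -0.13, -0.08 and 0.18. NOP8 (YOL144W, chromosome XV, 53098 to 54552), a nucleolar factor of the large subunit, had 0.276 and 0.269 in WT and 0.168 and 0.218 in upf1 (log2 -0.49 ± 0.13 SE, adjusted p = 0.0128), and MAK16 (YAL025C, chromosome I, 100225 to 101145), which acts in the same pathway, had 0.873 and 0.906 in WT and 0.578 and 0.742 in upf1 (log2 -0.44 ± 0.14 SE, adjusted p = 0.0330). The smallest of the 16 falls were those of BRX1 (-0.26), IMP4 (-0.27) and NOP14 (-0.27). Calls kept under every alternative were NOC4 upward and NOP1, NOP56, GAR1, NOP7 and TIF6 downward. Falls numbered 8 without replicate 1 of WT with DMSO, 7 without its replicate 2, 8 without replicate 1 of upf1 with DMSO and 6 with TMM scaling, where the rises remained 2 in number and which moved the median protein-coding change by 0.12.

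In CHX no member passed the test on the deposited scale in limma, while 2 had an unadjusted p below 0.05, voom on recovered reads called 2, and 16.5% of all features were called higher. The median was 0.11 beside 0.32 for protein-coding genes. Against other mRNAs 0 members were called higher and 19 lower, or 33.9%, where 5.86% of features were called higher and 9.22% lower. Of protein-coding genes, 7.60% were called higher and 11.4% lower. The median of -0.27 compared with -0.05 for protein-coding genes. This count also rested on single libraries: no member was called without replicate 1 of WT with CHX, 7 were without its replicate 2, 7 without replicate 1 of upf1 with CHX and 4 without its replicate 2.

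NOP16 (YER002W, chromosome V, 156803 to 157498) had 1.02 and 0.845 in WT with CHX and 0.584 and 0.517 in upf1 with CHX on the mRNA scale (log2 -0.75 ± 0.11 SE, adjusted p = 0.00879), and NOP15 (YNL110C, chromosome XIV, 417826 to 418488) had 1.56 and 1.32 in WT and 0.826 and 0.877 in upf1 (log2 -0.75 ± 0.11 SE, adjusted p = 0.00750). NSR1 fell from 4.79 and 4.71 to 2.94 and 3.09 (log2 -0.66 ± 0.12 SE, adjusted p = 0.0138). The strains did not overlap in any of these 3. NOP53 (YPL146C, chromosome XVI, 276162 to 277529), which recruits the exosome helicase to large-subunit precursors, had 0.743 and 0.622 in WT and 0.455 and 0.407 in upf1 (log2 -0.65 ± 0.10 SE, adjusted p = 0.00957). NOP8 had 0.370 and 0.337 in WT and 0.233 and 0.241 in upf1 (log2 -0.57 ± 0.13 SE, adjusted p = 0.0260). The smallest falls that passed the test were those of NOP56 (-0.26), UTP9 (-0.27), SOF1 (-0.32), IMP4 (-0.36) and DBP3 (-0.36), a helicase (YGL078C). UTP5 (YDR398W), UTP23 (YOR004W) and RLP7 (YNL002C), called in no other comparison on this scale, were among the 19, with -0.36, -0.42 and -0.51. In DMSO NOP15, NOP16 and NOP8 were called lower as well, and NSR1 and NOP53 were not. The comparisons in DMSO and in CHX share no library: 9 members were called lower in both, which was 9 of 16 in DMSO and 9 of 19 in CHX. None of the 19 calls in CHX was kept under every alternative, and the matching overlap among all features is not given here. Between the changes in DMSO and in CHX the correlation was r = 0.527 (Spearman's rho = 0.561) over the 56 members and 0.689 over all protein-coding genes.

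**Figure D5:**
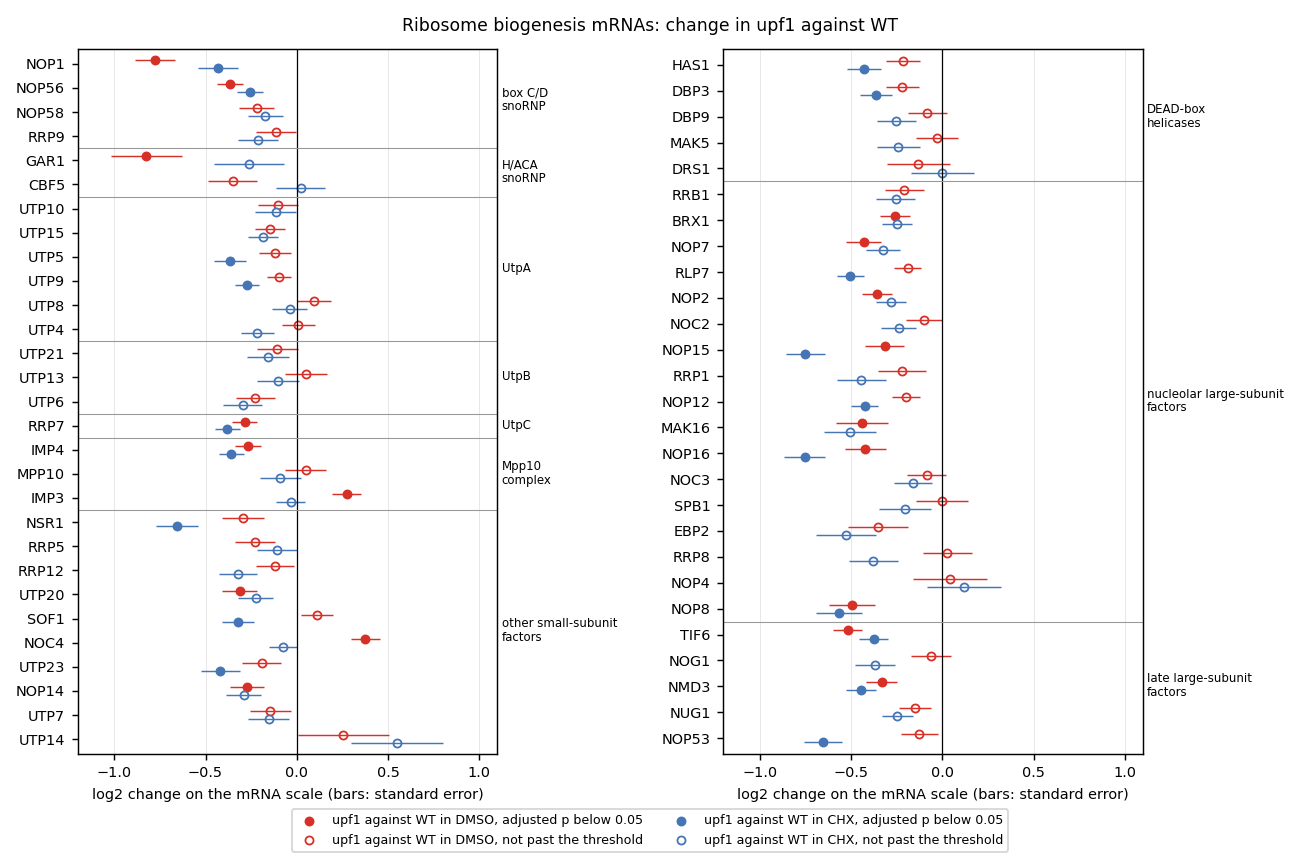
Log2 change on the mRNA scale in upf1 against WT in DMSO (red) and in CHX (blue) for the 56 members by role, with standard errors from limma as bars and filled points for adjusted p below 0.05. NOC4 and IMP3 lie right of 0 in DMSO, and GAR1, NOP1, NOP15, NOP16, NSR1 and NOP53 hold leftmost filled points; on the deposited scale 36 members were higher in DMSO and none was called in CHX.

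The difference of the CHX effects, upf1 minus WT, asks whether members responded differently in the 2 strains. Lower on the deposited scale were 2 members, NOC4 and NOP53, where 25.3% of all features were called lower, and the members' median was -0.42 beside -0.27 for protein-coding genes. On the mRNA scale 3 were lower and 0 higher, where 21.6% of features were called lower, and the median was -0.11 beside 0.03. Of protein-coding genes, 4.15% were called higher and 13.5% lower. NOC4 went from 0.768 and 0.810 to 0.835 and 0.939 in WT and from 0.995 and 1.06 to 0.828 and 0.854 in upf1, a difference of log2 -0.45 ± 0.11 SE, adjusted p = 0.0229. SOF1 (YLL011W, chromosome XII, 127523 to 128992), a processome protein, went from 0.803 and 0.873 to 0.974 and 1.09 in WT and from 0.866 and 0.946 to 0.802 and 0.847 in upf1 (log2 -0.43 ± 0.12 SE, adjusted p = 0.0371). NOP53 went from 0.640 and 0.593 to 0.743 and 0.622 in WT and from 0.556 and 0.572 to 0.455 and 0.407 in upf1 (log2 -0.53 ± 0.15 SE, adjusted p = 0.0351). In upf1 both CHX libraries lay below both DMSO libraries for all 3, while in WT they lay above for NOC4 and SOF1 and overlapped for NOP53. None of the 3 calls was kept when libraries were left out in turn: none of the 3 passed without replicate 1 of WT with DMSO, without replicate 2 of upf1 with DMSO or without replicate 2 of upf1 with CHX. Without replicate 2 of upf1 with DMSO 3 other members, NOP1, GAR1 and CBF5, were called higher. The 2 calls on the deposited scale became 0 without either replicate of WT with DMSO or without replicate 2 of upf1 with DMSO, 11 without replicate 1 of upf1 with DMSO and 18 without replicate 2 of upf1 with CHX. No difference between the strains passed the test for UTP6, RRP9, RRP7 or UTP15, whose estimates were -0.07 ± 0.15, -0.10 ± 0.15, -0.10 ± 0.10 and -0.04 ± 0.11 (log2 ± SE).

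Across the 5 comparisons 18 members had no call on the mRNA scale. They were UTP8, UTP10, UTP13, UTP21, UTP7, UTP14 and RRP12 of the small-subunit pathway, the helicases DBP9, DRS1 and MAK5, and NOP4, NOC2, NOC3, RRP1, RRP8, EBP2, SPB1 and NOG1 of the large-subunit pathway, with changes from -0.62 to 0.55. Both extremes were UTP14, whose replicates differed most: its densities were 0.150 and 0.244 in upf1 with DMSO and 0.136 and 0.169 with CHX.

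Other genes of the pathway, which are not members, both rose and fell on the mRNA scale. After CHX in WT, of 42 other small-subunit factors 12 rose and 8 fell (median 0.14), and of 40 other large-subunit factors 13 rose and 7 fell (0.06). In that comparison 44.1% of all features were called higher and 18.9% lower. These lists' counts are descriptions beside those shares. The extremes of the small-subunit list were FAL1, a helicase (1.00, adjusted p = 0.000202), and NOP10, an H/ACA core protein like GAR1 and CBF5 (-0.68, adjusted p = 0.000150). For the large subunit they were CGR1 (0.59) and NOG2 (-1.06). RNA polymerase I genes gave 1 rise and 3 falls of 11: RRN3, which brings the polymerase to the promoter, rose (0.83, adjusted p = 0.000256) and RPA14 had the largest fall (-0.53). In upf1 after CHX, 2 rose and 9 fell among the 42, 3 and 9 among the 40, and 1 and 6 among the 11. Of all features, 16.1% were called higher there and 21.4% lower.

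Of 11 regulators of growth genes, 7 rose after CHX in WT, where 44.1% of all features were called higher, and 1 fell (TOR1, -0.27). CRF1, a corepressor of ribosomal protein genes, had the largest rise (1.21, adjusted p = 0.000642). Its level was the lowest of the 11, with mean densities on the mRNA scale of 0.033 with DMSO and 0.083 with CHX in WT. STB3, whose protein binds the RRPE element, and DOT6 and TOD6, whose proteins bind the PAC element, were among the 7. The 7 also held IFH1, FHL1 and the activator SFP1. In upf1 after CHX 4 rose, with SFP1 the highest (0.66, adjusted p = 0.000574), and HMO1 fell (-0.56), where 16.1% of all features were called higher and 21.4% lower. TOD6 did not pass the test there (-0.02, adjusted p = 0.914). The CHX effect itself differed between upf1 and WT for 3 of the 11, all with the lower value in upf1: TOD6 (log2 -0.74, adjusted p = 0.0208), CRF1 (-1.11, adjusted p = 0.0149) and HMO1 (-0.41, adjusted p = 0.00975). Of all features, 21.6% were called lower in this difference and 2.46% higher. The 138 ribosomal protein genes, whose promoters held the PAC core in 10.9% of cases, moved mostly down on the mRNA scale: after CHX in WT 4 rose and 127 fell, at a median of -0.72, and in upf1 7 rose and 123 fell (-0.49). On the deposited scale 137 of the 138 were higher after CHX in WT, where 95% of all features were called higher. Their median rise of log2 0.82 stood beside 1.55 for protein-coding genes.

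In upf1 against WT in DMSO, 23.3% of protein-coding genes were called higher and 31.4% lower on the mRNA scale. Among these lists, 4 of the 42 rose and 6 fell, 1 and 5 of the 40, 1 and 3 of the 11 polymerase genes, 2 and 4 of the regulators and 1 and 130 of the ribosomal protein genes. ESF1 had the largest rise among small-subunit factors (1.00, adjusted p = 1.98e-05). In CHX, where 7.60% of protein-coding genes were called higher and 11.4% lower, 10 of the 42, 12 of the 40, 1 of the 11, 5 of the 11 regulators and 74 of the ribosomal protein genes fell, and 1 ribosomal protein gene, RPL22B, rose (0.28). TOD6 fell by 0.81 there (adjusted p = 0.00938).

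UTP22 (YGR090W), the UtpC partner of RRP7 and the gene nearest to the unmatched identifier in name, was not counted as a member. Its densities on the mRNA scale were 1.32 and 1.39 with DMSO and 1.33 and 1.46 with CHX in WT, and 1.27 and 1.24 and 1.27 and 1.45 likewise in upf1, and no comparison was called on that scale. Its change after CHX in WT was log2 0.04 ± 0.08 SE, adjusted p = 0.721, beside 0.48 ± 0.07 for RRP7, and the difference between these genes was not tested. With the deposited scale it rose after CHX in WT (1.57) and in upf1 (1.32), and it was higher in upf1 with DMSO (0.59, adjusted p = 0.0140).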

How the data were processed

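Strand-specific libraries of total RNA depleted of ribosomal RNA gave 8 samples. The submitters' processing notes name the tools DESeq2, featureCounts (2.0.0), HISAT2 (2.2.0) and Trim Galore and the genome build R64. In the sources used here the scaling of the densities is not given. The authors deposited a signal per feature and library, namely a normalized density of reads. Dividing by 1 factor per library and a length per feature gave whole reads for all 11986 features above 0, within 0.001 reads, and these reads, 9.09 M to 25.64 M per library, served for an alternative test. Replicates differed beyond sampling noise, with a chi-square per protein-coding gene of 4.90 to 15.2, so none was counted as a library deposited again. Counting strand-specific reads limits, but does not remove, loss of reads where features overlap.

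Densities were analysed as log2(density + 0.005488), the pseudocount being the 5th percentile of values above 0, so fold changes of low features are understated. Features with a mean below the pseudocount (286) were left out. The remaining 11700 were fitted together in limma (3.58.1, under R 4.3.3), giving each of the 4 groups its own mean. The empirical Bayes step used a trend, and 4 residual degrees of freedom remained. Standard errors come from this model, and the method was tested on simulated data. Groups were taken from the sample titles. The alternatives were another scaling, a pseudocount 10 times larger, no filter, voom on recovered reads, the replicate number as a block, and leaving out each library. No count model was the main test, since the table holds densities.

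Members and gene lists were chosen with earlier results of these data known, so their counts are descriptions. Changes are given for the 5 highest and 5 lowest called members per comparison on the mRNA scale, every member called in the difference of CHX effects, and the most abundant member of each role, and for the called extremes of each list; other members named with a change were picked to complete a role. Promoter letters were read from the reference genome of build R64 with Python 3.11.15.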

Additional observations from a re-analysis of the deposited data

Results flagged for a closer look

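The change after CHX differed between upf1 and WT for 3 members by limma's test of that difference. None of these calls was kept under every alternative. Of all features, 25.3% were called lower in this difference on the deposited scale and 21.6% on the mRNA scale. NOC4 rose by log2 1.69 in WT and 0.93 in upf1 on the deposited scale, a difference of -0.765 (adjusted p = 0.0408), and on the mRNA scale it changed by 0.17 and -0.29, a difference of -0.451 (adjusted p = 0.0229). NOP53 rose by 1.66 and 0.82, a difference of -0.843 (adjusted p = 0.0144), and changed by 0.14 and -0.39 on the mRNA scale, a difference of -0.527 (adjusted p = 0.0351). SOF1 changed by 0.30 and -0.13 on the mRNA scale, a difference of -0.434 (adjusted p = 0.0371), and did not pass the test on the deposited scale (-0.75, adjusted p = 0.0530). With 2 libraries a group, no single library could be tested as standing apart from its group.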

How the results depend on the processing

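The 2 scales gave different counts: the 56, 56, 36 and 0 members called on the deposited scale for CHX in WT, CHX in upf1, upf1 in DMSO and upf1 in CHX became 27 (12 higher, 15 lower), 21 (5 and 16), 18 (2 and 16) and 19 (all lower) after rescaling on mRNAs. On the deposited scale, a larger pseudocount gave 1 call for upf1 in CHX (higher) and 1 for the difference (lower), and voom gave 2 higher and 11 lower. On the mRNA scale, voom gave 31 lower for upf1 in CHX, and TMM scaling 22 higher for CHX in WT, 8 calls (6 lower) for upf1 in DMSO, 12 lower for upf1 in CHX and 6 lower for the difference.

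Replicate numbers did not pair the libraries, with correlations of same-numbered deviations from -0.04 to 0.08 over tested features. The replicate block gave 5 higher for upf1 in CHX and 21 lower for the difference on the deposited scale, and 1 higher and 5 lower for the same comparisons on the mRNA scale.

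Leaving out 1 library at a time gave, on the deposited scale, 5 to 46 calls for upf1 in DMSO (4 to 46 higher, 0 to 1 lower), 0 to 2 higher for upf1 in CHX and 0 to 18 lower for the difference. On the mRNA scale the ranges were 6 to 13 higher for CHX in WT, 13 to 25 calls for CHX in upf1 (3 to 5 higher, 8 to 22 lower), 9 to 24 for upf1 in DMSO (1 to 2 higher, 7 to 23 lower), 0 to 20 lower for upf1 in CHX, and 0 to 4 calls for the difference (0 to 3 higher, 0 to 4 lower). Of 86 results for named members, 33 lost or gained a call in some setting and none changed sign as a called value. The cause of these changes was not tested. With 2 libraries a group, 4 residual degrees of freedom limit the precision, and every member had at least 200 reads in each library. Counting UTP22 as a member, an alternative chosen after seeing the data, raised no count by more than 1.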
